A study of Mus musculus with 2 samples.

Results

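The Mir302-Mir367 cluster is a run of 5 microRNA genes, Mir302b, Mir302c, Mir302a, Mir302d and Mir367, within an intron of Larp7 on mouse chromosome 3. Its members were chosen by gene symbol (GENCODE M21) from the 1973 microRNA genes counted in the hindbrain of newborn mice. The choice was made with earlier results of these counts known, so the levels are given as a description. The samples were 2 hindbrains of strain B6NCrl pups at postnatal day 0, called pup 1 and pup 3, each sequenced as its own library and both in the same group. No treatment is labelled, and sex was not recorded. Small RNAs below 30 nt from total RNA were sequenced (microRNA-seq), and the question the data address is how abundant each gene of the cluster was and how far the pups differed.

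MicroRNAs are cut from hairpin precursors and guide silencing proteins to messenger RNAs, chiefly by pairing through the seed, bases 2 to 8 of the mature strand. The miR-302 family is best known from pluripotent cells of the early embryo, where it promotes cell division and self-renewal, and its level falls as cells differentiate. The genes of the cluster are known to be made from a single primary transcript, so 1 transcript carries both the miR-302 seed and the different seed of miR-367. Larp7 encodes a La-related protein that binds the 7SK RNA.

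The hairpins lie on the + strand and Larp7 on the − strand, so the cluster is antisense to its host. It spans 580 bases, chr3:127545228-127545807 in GRCm38 (mm10), within intron 8 of the 13-exon transcript Larp7-201. Its last base is 18 bases from exon 8 of Larp7, and 949 bases separate its first base from exon 9. In order along the + strand, Mir302b (ENSMUSG00000076252.1) lies at chr3:127545228-127545301, Mir302c (ENSMUSG00000065482.1) at chr3:127545363-127545430 and Mir302a (ENSMUSG00000065552.1) at chr3:127545496-127545564. Mir302d (ENSMUSG00000065447.1) follows at chr3:127545624-127545689 and Mir367 (ENSMUSG00000065413.2) at chr3:127545733-127545807. Between 43 and 65 bases separate neighbouring hairpins.

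The mature sequences of the cluster are shown because they decide which reads can be told apart and which other microRNAs share a seed. All 5 genes matched the RefSeq table (GRCm38.p6), with 9 mature sequences, the 5p strand for Mir302a and both strands for the other 4 genes. The reference used here lists no 3p strand for Mir302a, so miR-302a-3p could not be printed or searched. Capitals mark bases 2 to 8.
miR-302b-5p: aCUUUAACaugggaaugcuuucu
miR-302c-5p: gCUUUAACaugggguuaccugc
miR-302d-5p: aCUUUAACauggaggcacuugcu
miR-302a-5p: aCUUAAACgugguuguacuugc
miR-302b-3p: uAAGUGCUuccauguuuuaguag
miR-302d-3p: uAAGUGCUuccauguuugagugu
miR-302c-3p: aAGUGCUUccauguuucagugg
miR-367-5p: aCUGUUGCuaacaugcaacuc
miR-367-3p: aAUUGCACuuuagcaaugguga

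By these sequences miR-302b-3p and miR-302d-3p have the seed AAGUGCU, and miR-302c-3p holds the same 7 bases from its base 1. As annotated, miR-302c-3p therefore has the seed AGUGCUU. On the 5p arm, miR-302b, miR-302c and miR-302d share the seed CUUUAAC, and that of miR-302a is CUUAAAC. The seed of miR-367-3p, AUUGCAC, belongs to none of the printed miR-302 sequences.

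The 3p sequences of miR-302b, miR-302c and miR-302d share an unbroken stretch of 16 bases, in capitals here, and differ mainly in the 6 bases after it.
miR-302b-3p: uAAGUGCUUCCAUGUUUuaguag
miR-302c-3p: AAGUGCUUCCAUGUUUcagugg
miR-302d-3p: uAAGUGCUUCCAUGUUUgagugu
None of the 9 whole sequences was found in a hairpin other than its own among 2202 GENCODE M21 microRNA hairpins, searched without mismatches on both strands. Cut to their first 18 bases, 1 of the 9 was found elsewhere, miR-302b-3p in Mir302a. Cut to 17 bases, miR-302b-3p and miR-302d-3p were each found in 3 hairpins, those of Mir302a, Mir302b and Mir302d. The hairpins of Mir302a and Mir302b share 20 bases, of which 18 lie within miR-302b-3p. The 3p strand of Mir302a is not among the 9 sequences searched. The longest stretch of Mir302d shared with another hairpin was 17 bases, that of Mir302c 16 and that of Mir367 11. Reads that map to several loci were not counted to a gene and made up 40.2% and 42.0% of all reads in pups 1 and 3. Shortened reads of the 3p strands could be among them, and how many of them come from this cluster was not tested.

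The libraries held 2459757 same-strand counts of microRNA genes in pup 1 and 3012320 in pup 3, and CPM are counts per 1000000 of these totals. Markers of the labelled tissue were present. The 12 neuronal microRNA genes of a fixed list all had counts and summed to 41772 and 43295 CPM, led by Mir149 (17477 and 15600 CPM). Of the 12, 9 had at least 10 CPM in both pups, and Mir124a-1 had only 4.88 and 5.64 CPM. The Hox-encoded list, which marks position along the body axis, had counts for 5 of 6 genes, 57126 and 34281 CPM in all, led by Mir10a and with Mir196a-1 at 0. Since reads that map to several loci were not counted to a gene, a low count or a 0 in these lists does not show absence.

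The cluster was detected at a low level, carried by 4 of its 5 genes. The genes summed to 814 counts in pup 1, or 331 CPM (exact Clopper-Pearson 95% interval 309 to 354), and to 1172 counts in pup 3, or 389 CPM (367.1 to 412). That is 0.0360% ± 0.00411 of the counts (SD, n = 2). Intervals cover counting error only, since reads carry no molecular identifiers. In whole tissue, few cells with much of a microRNA and many cells with little of it cannot be told apart.

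Mir302d was the most abundant member and was nearly equal in both animals. It had 320 counts in pup 1 and 399 in pup 3, or 130 and 132 CPM, which placed it 215th and 211th of 1973 genes, of which 699 had a count in either library. Mir302a had 285 and 393 counts, or 116 and 130 CPM. The values of Mir302a and Mir302d overlapped across the pups, and within each pup their counting intervals overlapped (103 to 130 against 116 to 145 CPM in pup 1, 118 to 144 against 120 to 146 CPM in pup 3).

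Mir302b had 180 counts in pup 1 and 341 in pup 3, or 73.2 and 113 CPM. It was lower than Mir302a and Mir302d in both pups, by a wide margin in pup 1 and a narrow one in pup 3. In pup 3 its counting interval, 102 to 126 CPM, overlapped those of Mir302a and Mir302d, so their order was not resolved there. The gap between the higher value of Mir302b and the lower value of Mir302a was less than the SD of Mir302b over the pups (93.2 ± 28.3 CPM, n = 2). Mir302c, whose 3p strand starts 1 base further in than those of miR-302b and miR-302d, had 29 and 39 counts, or 11.8 and 12.9 CPM. Its counting intervals, 7.90 to 16.9 CPM in pup 1 and 9.21 to 17.7 CPM in pup 3, lay below those of the other 3 Mir302 genes in both pups.

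Mir367 had 0 counts in both libraries, which allows up to 1.22 CPM in pup 1 and 0.996 CPM in pup 3 by a floor of 3 counts. Against that floor, per library, Mir302d was 133-fold higher and Mir302c 13-fold higher in pup 3, and Mir302a was 95-fold higher in pup 1. Mir367 is the last hairpin of the cluster and shares no more than those 11 bases in a row with any other hairpin. With no count its level was not measurable at this depth, and it was left out of the comparison of the pups.

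A read of a small RNA covers the whole molecule, so CPM were not divided by length. Divided by hairpin length, which runs from 66 bases in Mir302d to 75 in Mir367, the order Mir302d, Mir302a, Mir302b, Mir302c was the same in both pups, from 4.85 down to 0.426 counts per base in pup 1 and from 6.05 down to 0.574 in pup 3. No member had a count in the column taken as the opposite strand, that of Larp7, in either library.

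**Figure D1:**
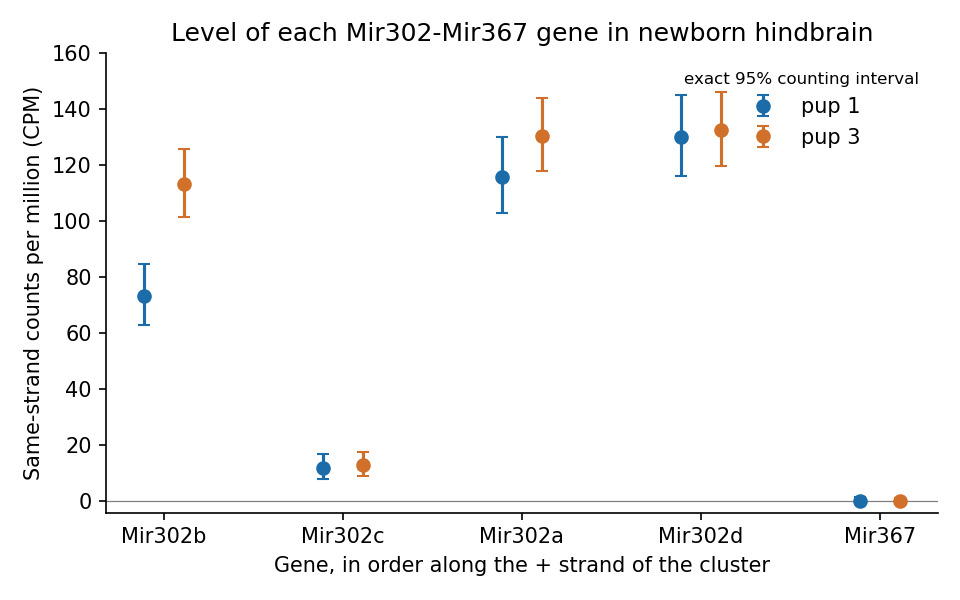
Same-strand CPM of the 5 genes in pup 1 and pup 3, in order along the + strand, with exact 95% counting intervals. Mir302a and Mir302d lie between 116 and 132 CPM, Mir302b is at 73.2 and 113 CPM, Mir302c is near 12 CPM and Mir367 is at 0 in both pups.

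**Figure D2:**
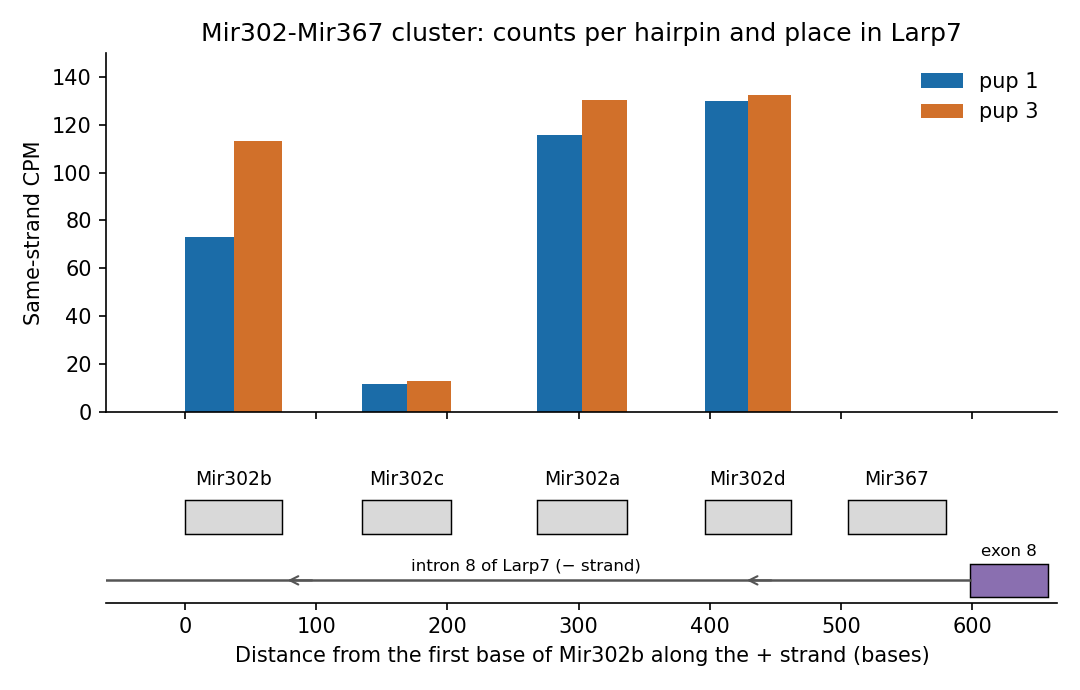
Bars give the same-strand CPM of each hairpin in pup 1 and pup 3 over its place in the cluster, as distance in bases from the first base of Mir302b; grey boxes are hairpins and the line with arrows is intron 8 of Larp7, drawn with the start of exon 8. Mir302c, between the higher Mir302b and Mir302a, stays at 11.8 and 12.9 CPM, and the hairpin nearest exon 8 has no count.

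The make-up of the cluster differed somewhat between the pups. Mir302d made up 39.3% of the cluster in pup 1 and 34.0% in pup 3, with exact intervals of 35.9% to 42.8% and 31.3% to 36.8%. Mir302a made up 35.0% and 33.5%, and Mir302c 3.56% and 3.33%. The share of Mir302b was 22.1% in pup 1 (19.3% to 25.1%) and 29.1% in pup 3 (26.5% to 31.8%), intervals that do not overlap.

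Mir302b was the member that differed between the pups beyond counting error. Its log2 fold of pup 3 over pup 1, on totals scaled by TMM (trimmed mean of M values), was 0.57 (counting interval 0.31 to 0.85), a 1.49-fold difference with an adjusted p of 3.83e-05 by the exact binomial test, Benjamini-Hochberg over all 395 genes tested. Genes were tested when they had at least 10 counts in either library, and an adjusted p under 0.05 was called. The 4 tested members had 29 to 399 counts per library, so the share of them called says little. The test calls smaller folds where counts are higher, sets 1 library against 1 other and has no replicates behind it. It called 185 of the 395 genes, or 46.8%, so a call was common, and 1 of the 4 tested members is a lower share than that.

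The other Mir302 genes did not pass the same test. The log2 fold of Mir302a was 0.12 (interval -0.11 to 0.34), that of Mir302c 0.076 (-0.65 to 0.83) and that of Mir302d -0.028 (-0.24 to 0.19). The interval of Mir302c includes the fold of Mir302b, so its 29 and 39 counts cannot separate the fold of Mir302b from none. Over the 4 tested members the median absolute log2 fold was 0.097, and over all 395 genes it was 0.22.

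Set against the folds of all tested genes, the fold of Mir302b was not among the largest. The tested genes include some with few counts, whose folds vary more by counting error. Genes with counts like those of Mir302b were not compared apart. The common biological coefficient of variation was estimated from the same 2 libraries, so it counts the difference between the pups as spread. A test that uses it is therefore largely bound to call few genes. This coefficient was 16.5% over 361 genes (edgeR, intercept-only design), which gives an SD of 0.34 for a log2 fold. The fold of Mir302b was 1.71 such SDs, and 19.0% of the tested genes had a larger absolute fold. With that spread included, edgeR's exact test gave Mir302b an adjusted p = 1 and an unadjusted p = 0.115. It called 2 of the 395 genes, 0.506%, which were Mir144 and Mir451a (named after their values were seen), and 23, or 5.82%, had an unadjusted p under 0.05, with no member among them.

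**Figure D3:**
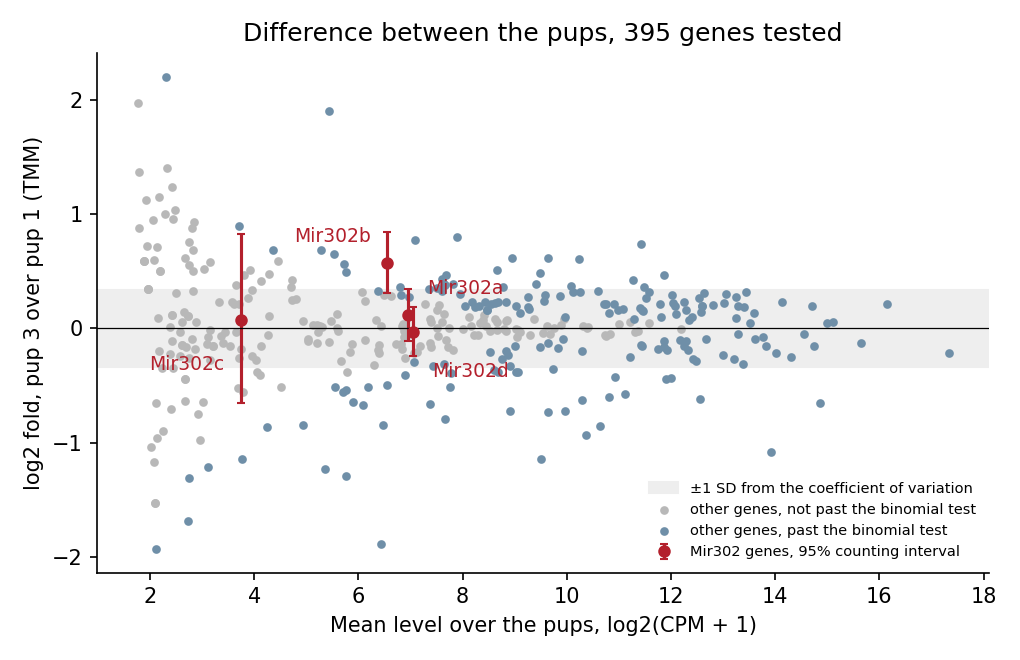
Each point is 1 of 395 tested genes, placed by its mean level, log2(CPM + 1), and its log2 fold of pup 3 over pup 1 after TMM scaling; red points are the Mir302 genes with 95% counting intervals and the grey band is 1 SD (0.34) of a fold from the coefficient of variation. Mir302b at 0.57 lies above the band, and Mir302a, Mir302c and Mir302d lie inside it.

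Ratios of members within a library need no scaling, and were examined after the folds were seen. Mir302b had 0.563 counts per count of Mir302d in pup 1 and 0.855 in pup 3, a log2 change of 0.60 (conditional exact 95% interval 0.26 to 0.95). Relative to Mir302a the ratio went from 0.632 to 0.868 (log2 change 0.46, interval 0.11 to 0.81), although these 2 hairpins share 20 bases. Mir302a relative to Mir302d was 0.891 and 0.985 (log2 change 0.15, interval -0.17 to 0.46). The intervals of Mir302b relative to Mir302a and Mir302d lay above 0, while those of Mir302a relative to Mir302d and of the 3 pairs with Mir302c included 0. Summed over the 5 genes the log2 fold was 0.18 (interval 0.050 to 0.31), and without Mir302b it was 0.045 (-0.11 to 0.20).

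Other microRNAs with the same or a related seed ranged from no count to levels far above the cluster, and some were at the level of single Mir302 genes. Their sequences are shown to make the shared seeds visible, again with bases 2 to 8 in capitals.
miR-294-3p: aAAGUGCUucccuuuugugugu
miR-291a-3p: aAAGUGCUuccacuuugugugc
miR-295-3p: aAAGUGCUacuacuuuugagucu
miR-17-5p: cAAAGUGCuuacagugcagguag
miR-92b-3p: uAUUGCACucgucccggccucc
miR-32-5p: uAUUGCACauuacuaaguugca
miR-294, miR-291a and miR-295 carry the seed of miR-302b-3p and come from the Mir290 to Mir295 cluster on chromosome 7, the other cluster known from mouse pluripotent cells. The seed of miR-17-5p, a microRNA of dividing cells, overlaps that of miR-302 with a shift of 1 base. miR-92b and miR-32 carry the seed of miR-367-3p.

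The Mir290 to Mir295 cluster was close to the limit of detection. Its 7 genes with a row summed to 11.8 CPM in pup 1 and 17.6 CPM in pup 3. Mir302 genes summed to 28.1 and 22.1 times as much. Mir293 led with 13 and 21 counts, or 5.29 and 6.97 CPM, followed by Mir294 with 12 and 16 counts and Mir292 with 3 and 11. Mir291a had 0 and 3 counts, Mir295 had 1 and 2, and Mir290a and Mir291b had none in either pup. The 3 genes that carry the seed of miR-302b-3p, Mir294, Mir295 and Mir291a, came to 5.29 and 6.97 CPM in all, and the Mir302 genes had 62.6 and 55.8 times as much. Both sums cover both arms of each hairpin, so this is not a ratio of levels of the seed. The Mir302 sum also includes Mir302c, whose annotated 3p seed differs, and Mir302a, whose 3p strand is not listed. Mir291a of the Mir290 to Mir295 cluster shares 20 bases with 1 other hairpin, so its reads may be undercounted. Of the 3 genes of this cluster that were tested between the pups, Mir292, Mir293 and Mir294, none passed the binomial test, which called 46.8% of all genes tested. With 3 to 21 counts per library their intervals were wide, as for Mir292 (log2 fold 1.37, interval -0.39 to 4.01).

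As a sum, the family of miR-17-5p exceeded the cluster. Besides Mir6383, at 0 in both pups, 6 genes with its seed had counts, and they summed to 28481 CPM in pup 1 and 26445 CPM in pup 3, or 86.1 and 68.0 times the Mir302 genes. Mir17 led with 11681 and 9766 CPM, then Mir106b with 5683 and 6753 CPM and Mir93 with 5912 and 5096 CPM. Mir106a (85.0 and 70.7 CPM) and Mir20b (82.9 and 60.4 CPM) were near the level of Mir302b. Of the 6 tested genes, 1 was higher in pup 3 and 4 were lower by the binomial test, against 25.6% of all tested genes higher and 21.3% lower. The CPM of a gene covers both arms of its hairpin, so these sums are not levels of the seed itself.

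Other genes with the seed of miR-367-3p had counts although Mir367 had none. The 6 other genes with this seed all had at least 10 CPM in both pups and summed to 4596 and 4600 CPM. This sum covers both arms of each hairpin, so it is not a level of the seed itself. Mir92-1 and Mir92-2 carry the same miR-92a-3p, and reads that map to several loci were not counted to a gene. Mir92b, known from neural progenitors, had 2838 and 2661 CPM, Mir92-1 of the Mir17-92 cluster 987 and 960 CPM, and Mir25 440 and 480 CPM. Mir363, at 140 and 169 CPM, was close to Mir302d. By the binomial test 1 of the 6 was higher in pup 3, 2 were lower and 3 did not pass, a share called that is near the 46.8% of all tested genes. Mir32 was the higher gene, with 412 and 913 counts and a log2 fold of 0.80 (interval 0.63 to 0.97, adjusted p = 3.81e-21 by the binomial test).

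**Figure D4:**
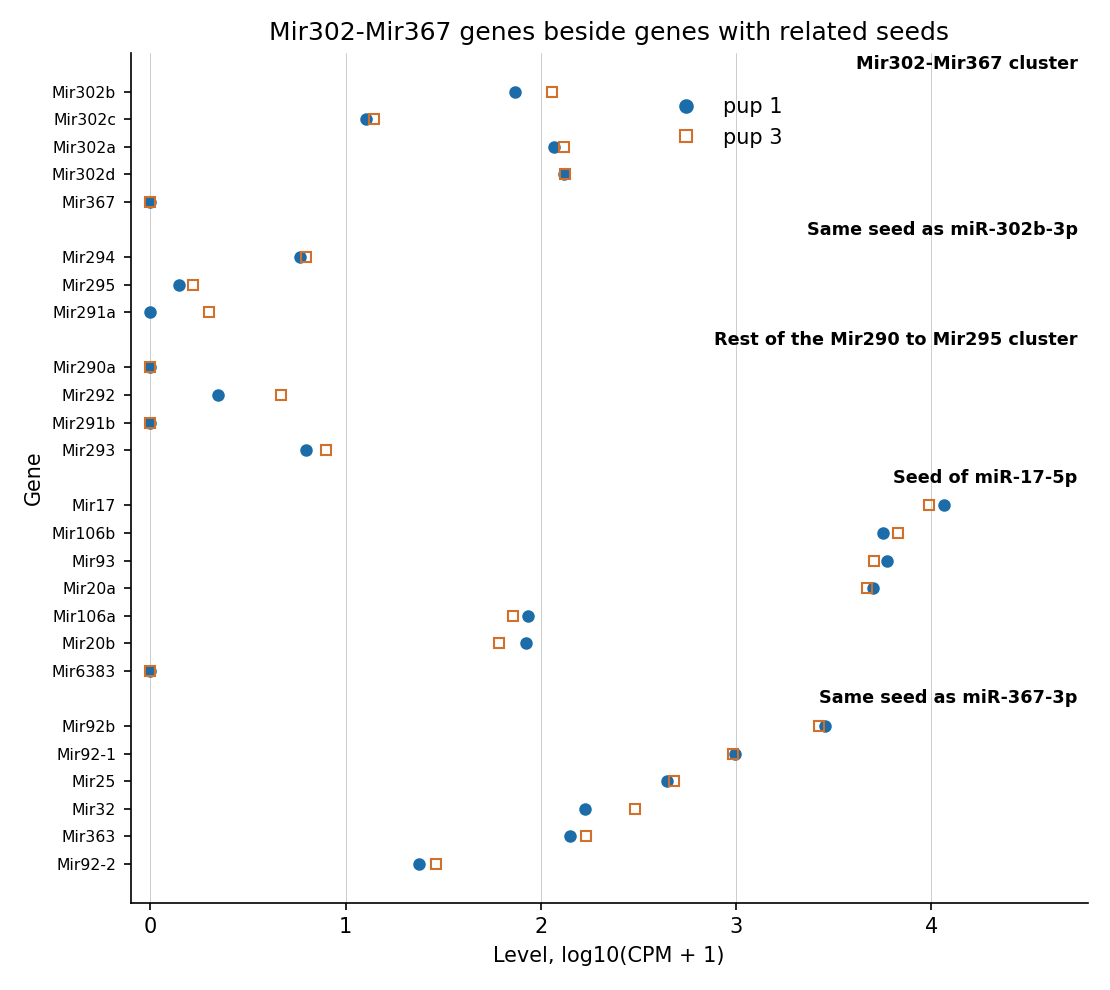
Level of each gene in pup 1 (filled circles) and pup 3 (open squares) as log10(CPM + 1), for the Mir302-Mir367 cluster, the genes with the seed of miR-302b-3p, the rest of the Mir290 to Mir295 cluster and the genes with the seeds of miR-17-5p and miR-367-3p. Mir302a, Mir302b, Mir302c and Mir302d lie above every gene of the Mir290 to Mir295 cluster and below Mir17, which is at 11681 and 9766 CPM. Mir367 is at 0, below all 6 genes that carry its seed.

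The genes nearest to each member in level were found by Euclidean distance of log2(CPM + 1) over the 2 libraries. Mir34b (133 and 135 CPM, distance 0.039) and Mir146 (128 and 128 CPM, distance 0.058) were nearest to Mir302d. Mir24-2 (110 and 138 CPM) and Mir194-2 (120 and 120 CPM) were nearest to Mir302a. For Mir302b the nearest were Mir152 (78.5 and 99.6 CPM, distance 0.21) and Mir490 (85.8 and 109 CPM, distance 0.23), and for Mir302c they were Mir1930 (11.0 and 13.3 CPM) and Mir8114 (11.4 and 11.6 CPM). With 2 libraries this likeness is one of level.

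Markers of other cell types were at levels below, near or far above the cluster. Striated muscle microRNAs, with counts for 5 of 8 genes, summed to 117 and 148 CPM, of which Mir206 had 98.4 and 125 CPM. Those of epithelial cells (Mir200a, Mir200b, Mir200c, Mir141 and Mir429) all had counts and summed to 112 and 156 CPM, led by Mir429. Of these 5 genes, 3 had at least 10 CPM in both pups. The liver microRNA Mir122 had 41.9 and 45.5 CPM. Of the 2 genes in the leukocyte and microglia list, Mir223 had 169 and 229 CPM, and no row matched the other, Mir142. The red blood cell pair Mir144 and Mir451a had 151 and 105 CPM in sum. Within that pair Mir144 was higher in pup 3 (17.1 and 67.1 CPM, log2 fold 1.91) and Mir451a lower (134 and 37.5 CPM, log2 fold -1.88). Mir126a of endothelial cells had 34216 and 36931 CPM, and the 3 neural progenitor genes with a row, led by Mir92b, summed to 3363 and 3095 CPM. In plain CPM, without TMM scaling, the sums of the muscle, epithelial, leukocyte, liver, endothelial and neuronal lists were higher in pup 3. Those of the Hox-encoded, neural progenitor and red blood cell lists were lower. The neuronal sums were close, at 41772 and 43295 CPM, and the list sums were not tested as such. The part of these cell types in the level of the cluster was not tested. In the muscle list Mir1a-1, Mir133a-1 and Mir133a-2 had no count.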

How the data were processed

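The authors deposited 1 table of raw counts of reads per microRNA gene for each pup, built on mm10 and GENCODE M4 according to the accompanying listings. For alignment and trimming, tools and versions were not given in the sources used here. The meaning of the 3 count columns (either, same and opposite strand) was inferred from their values, since it is not described. The first equals the sum of the others for each gene, which does not tell same from opposite strand. The column taken as same strand held 2459757 and 3012320 counts in pups 1 and 3, and the other 68111 and 100211. This assignment was not tested. Same-strand counts were used. Rows that name no gene held 57.7% and 58.0% of reads and were left out of totals. GENCODE M21 symbols matched 1894 of 1973 rows. Mature sequences came from RefSeq (GRCm38.p6), and no genome was searched.

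CPM used same-strand gene totals. Pup 3 was set against pup 1 by an exact binomial test, two-sided, on TMM-scaled totals (scipy 1.17.1, edgeR 4.0.16 in R 4.3.3), Benjamini-Hochberg over all tested genes, with a prior of 0.5 counts on folds. With 1 library per pup edgeR's quasi-likelihood test could not be used. Scripts were tested on simulated data. DESeq2 1.42.0 size factors, other filters, strands and priors were alternatives.

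The members and lists were chosen with earlier results of these data known. Named genes were all members, the Mir290 to Mir295 cluster, the 3 highest genes of each seed family, the 2 genes nearest each tested member and the highest marker of each list. Mir32, Mir363, Mir20b, Mir106a, Mir6383, Mir92-2 and Mir124a-1, and the members of lists at 0, were named after their values were seen. Seed families were matched to miR-302b-3p, miR-367-3p and miR-17-5p. The plan named miR-302a-3p, and miR-302b-3p replaced it because the reference lists no miR-302a-3p.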

Additional observations from a re-analysis of the deposited data

Results flagged for a closer look

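Reads that map to several loci belong to no gene in these tables and enter no comparison, and they exceeded the floor of 3 counts. They numbered 2337021 in pup 1 and 3015969 in pup 3, against 814 and 1172 counts for the Mir302-Mir367 cluster. How many of them come from the miR-302 3p strands, whose first 17 bases are found in up to 3 hairpins of the cluster, was not tested.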

How the results depend on the processing

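The summed level of the cluster, 360.0 CPM, was 152 CPM when set against all reads and between 349 and 360 CPM under TMM, DESeq2 size factors and the either-strand column; with 1 pup left out it was 331 or 389 CPM. The log2 fold of Mir302b was between 0.56 and 0.63 over 7 alternatives. Its adjusted p was at most 6.78e-05 over those that kept the binomial test and 1 in edgeR's exact test with the common dispersion. That test called 0 of the 4 tested members, none at an unadjusted p under 0.05 either, and 2 genes in all, against 1 and 185 by the binomial test. The binomial count over all genes was between 177 and 196 under the other alternatives. The dispersion in edgeR's exact test came from the same 2 libraries, so its few calls are largely set in advance. Mir302d had a log2 fold of 0.026 with plain totals against -0.028 with TMM, and passed no test. The summed log2 fold was 0.045 without Mir302b, an alternative chosen after seeing the data. Of the 9 mature sequences, 0 were found in a second hairpin whole or cut to 20 bases, and 1 when cut to 18. Folds without 1 of the pups could not be had, since each pup is a single library. No paired analysis was possible because there is 1 group. Mir302c, with 29 and 39 counts, is limited by depth.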

Other observations

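Runs of neighbouring microRNA genes on 1 strand, with gaps of up to 10 kb, were compared after the members' values were seen. Among 8 runs with at least 4 tested genes, the log2 folds of pup 3 over pup 1 spanned 0.60 within the Mir302-Mir367 cluster, the narrowest of the 8. The median span was 1.08 and the widest 1.39. The cluster had 4 tested genes and the other runs had 5 to 31, and a span tends to widen with the number of genes. A gene with no count in either pup, such as Mir367, was found in 4 of the 8 runs.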
